A study of Homo sapiens with 9 samples.

Results

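The genes described here are 10 members of the transforming growth factor beta (TGF-beta) and bone morphogenetic protein (BMP) pathways, out of 60325 gene rows in the deposited tables. They include the co-receptor gene ENG, the ligand gene TGFB1, and the receptor genes TGFBR1, TGFBR2 and BMPR2. The rest are the signal transducer gene SMAD3, the inhibitory SMAD gene SMAD7, and the target genes ID1, ID2 and ID3. ENG was selected on its higher count in rescue than in knockdown-labelled libraries in an earlier analysis of these same counts, and the other 9 genes were listed with it for their place in the pathway. Values of the contrast between rescue and knockdown-labelled libraries are therefore given for these 10 genes as a description, with no test, and ENG is given no p in any comparison because each shares libraries with that contrast.

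The counts come from LAPC4, an established human prostate epithelial cancer cell line, sampled at day 30 of a study of UGT2B28. UGT2B28 encodes an enzyme that conjugates steroids with glucuronic acid. The 9 libraries of total RNA fall into 3 control libraries (labelled NT, genotype Control), 3 from cells labelled as UGT2B28 knockdown (KD4) and 3 from cells labelled as rescue (KD4OE), which carry the knockdown and overexpress UGT2B28 in addition. Selection was with puromycin at 3 ug/mL for knockdown and with G418 at 1 mg/mL for rescue, per the labels, which name no drug for the controls, so an effect of a drug and one of the genotype cannot be told apart. Whether the replicates came from separate cultures is not said, and the p-values below therefore speak only to variation among these libraries, possibly technical.

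Gene counts summed to 8132206 to 14185252 per library. Levels are given as CPM, that is, counts per 1000000 counts on genes, scaled by trimmed mean of M-values (TMM) factors. UGT2B28 itself was at 5.11, 5.09 and 7.77 CPM in the controls, at 8.46, 6.16 and 3.04 CPM in the libraries labelled knockdown and at 74.8, 92.6 and 53.4 CPM in the rescue libraries. UGT2B28 in knockdown-labelled libraries was not lower than in controls beyond their spread (log2 fold change -0.04, SE 0.349, adjusted p = 0.957 by edgeR), so directions drawn from that label rest on the label alone. Knockdown-labelled libraries 1 and 2 stood apart, with 15.1% and 15.8% of their counts on mitochondrial transcripts, against 10.2% in knockdown-labelled library 3 and 5.79% to 8.57% in the other 6.

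TGF-beta ligands bind a type II receptor, encoded by TGFBR2, which activates a type I receptor, encoded by TGFBR1, and the signal passes to SMAD2 and SMAD3. BMP ligands signal through BMPR2 and other receptors to SMAD1, SMAD5 and SMAD9, whose classic target genes are ID1, ID2 and ID3. Endoglin, the product of ENG, is a transmembrane glycoprotein that assists ligand binding in both branches and is best known from endothelial cells. In prostate epithelium TGF-beta is known as a restraint on growth.

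The promoters of ENG, TGFB1 and TGFBR2 are shown because these were the receptor and ligand genes whose library values were most clearly separated between groups. The sequences come from RefSeq on GRCh38.p14, are written 5′ to 3′ on the strand of the gene, and capitals mark matches to a motif of EGR factors. ENG lies on the minus strand of chromosome 9 and its window, chr9:127854757-127854908, holds 152 bases from 250 to 99 before the RefSeq start. TGFB1 lies on the minus strand of chromosome 19 and its window, chr19:41353923-41354168, holds 246 bases up to the start. TGFBR2 lies on the plus strand of chromosome 3 and its window, chr3:30606106-30606355, holds 250 bases up to the start. TGFBR2 has 2 promoter windows in that source, and only the one farthest upstream is described. Each window was cut to its longest stretch outside annotated exons, so the ENG window stops short of the start.
ENG: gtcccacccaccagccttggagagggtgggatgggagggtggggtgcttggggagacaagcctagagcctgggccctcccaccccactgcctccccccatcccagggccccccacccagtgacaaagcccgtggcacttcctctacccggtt
TGFB1: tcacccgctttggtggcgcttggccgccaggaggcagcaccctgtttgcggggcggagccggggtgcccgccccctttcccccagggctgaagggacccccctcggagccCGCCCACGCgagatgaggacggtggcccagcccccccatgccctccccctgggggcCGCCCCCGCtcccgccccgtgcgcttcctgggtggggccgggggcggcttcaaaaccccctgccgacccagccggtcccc
TGFBR2: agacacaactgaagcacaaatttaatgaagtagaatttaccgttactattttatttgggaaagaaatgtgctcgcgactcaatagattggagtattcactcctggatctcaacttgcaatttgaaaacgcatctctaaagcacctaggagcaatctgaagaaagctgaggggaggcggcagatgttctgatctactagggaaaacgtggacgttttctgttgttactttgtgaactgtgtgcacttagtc

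The windows of ENG and TGFB1 were rich in G and C (68.4% and 77.2%), and that of TGFBR2 was not (40.8%). The EGR motif, GCGNGGGCG searched on both strands, had 2 matches in the TGFB1 window and 0 in the others, and 8.35% of 35116 promoter windows cut to the same length as that of TGFB1 held it. The SMAD box CAGAC had 0 matches in all 3 windows, against 38.0% of promoters with one at the TGFBR2 length and 26.3% at the shorter ENG length. The GC-rich SMAD box GGCGCC also had 0 matches in all 3 windows, against 16.4% of promoters at the TGFBR2 length. A match is a string of letters in a window and not a measured binding site.

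ENG was lowest in the knockdown-labelled cells. Its gene spans chr9:127815012-127854756 on GRCh38 (GENCODE 29). ENG stood at 57, 57 and 64 counts (6.62, 5.80 and 6.55 CPM) in the controls. In the knockdown-labelled libraries it stood at 17, 29 and 40 counts (2.28, 2.55 and 4.34 CPM). In the rescue libraries it stood at 138, 71 and 81 counts (9.07, 6.19 and 8.03 CPM). All 3 knockdown-labelled values lay under every other library, while rescue library 2 fell within the range of the controls. The knockdown-labelled mean was 3.06 ± 1.12 CPM (SD, n = 3), against 6.32 ± 0.453 CPM in the controls and 7.76 ± 1.46 CPM in the rescue libraries. ENG differed by a log2 fold change of -1.04 between knockdown-labelled and control libraries and by 1.34 between rescue and knockdown-labelled libraries. Between rescue and control the difference was 0.30. In bulk RNA, fewer cells that express a gene and less RNA per cell cannot be told apart.

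The 2 lowest ENG values belonged to knockdown-labelled libraries 1 and 2, whose mitochondrial shares were the 2 highest. With knockdown-labelled library 3 as the sole library of its group, the log2 difference of ENG from the controls was -0.57 and that of rescue from knockdown-labelled was 0.87, smaller than with all 3. Without library 3 they were -1.37 and 1.67. The part of the mitochondrial share in these differences was not tested.

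The sources used here do not give the strand setting of the counting, and a gene on the opposite strand, ENSG00000225032, shares 313 exon bases with ENG, 7.95% of the exon length of ENG. That gene had 43, 53 and 55 counts in the controls, 31, 34 and 53 with the knockdown label and 112, 66 and 64 in the rescue libraries. Its log2 fold changes were -0.32 against control and 0.60 for rescue against knockdown-labelled, in the direction of ENG and less than ENG in size, and neither passed (adjusted p = 0.578 and 0.177, edgeR). Without the strand setting it is not known how reads in the shared bases were assigned.

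**Figure D1:**
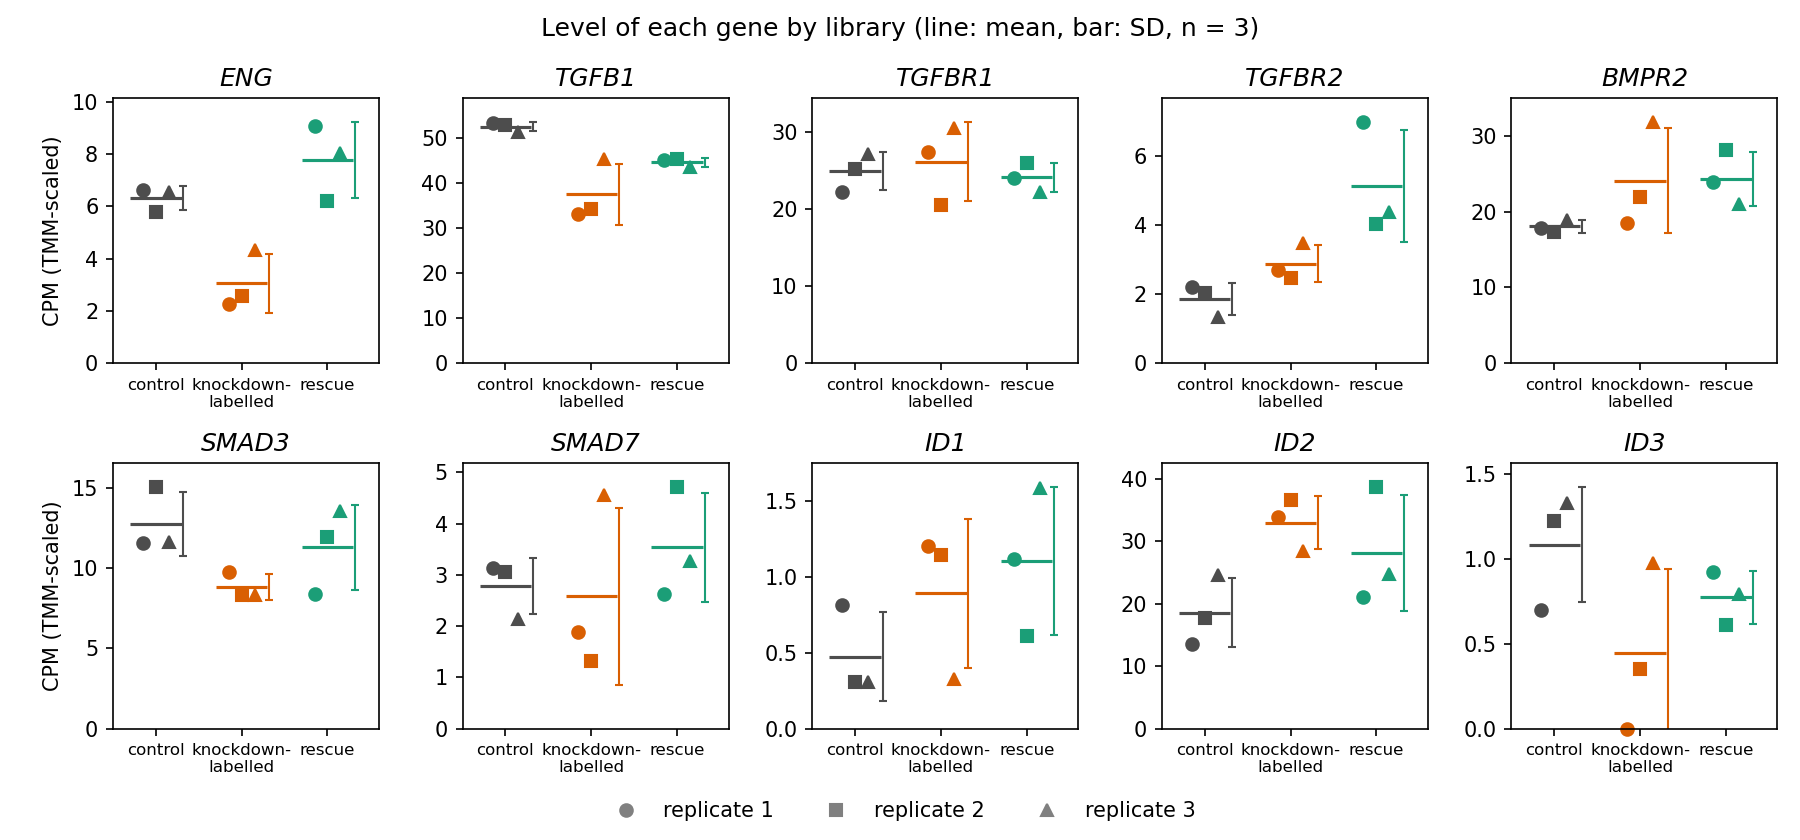
Level of each of the 10 genes in TMM-scaled CPM (vertical axes, each from 0) by group, with 1 point per library, a line for the mean and a bar for the SD (n = 3; the lower end of the ID3 bar in the knockdown-labelled group lies under 0 and is not drawn). The 3 knockdown-labelled ENG values, 2.28 to 4.34 CPM, lie under all others, and the 3 rescue TGFBR2 values, 4.01 to 6.97 CPM, lie over all others.

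TGFB1, the gene of the most widely expressed TGF-beta ligand, had the highest level per kilobase of exon of the 10 genes in the controls. Its levels were 53.3, 52.9 and 51.4 CPM in the controls, 33.1, 34.2 and 45.4 CPM in knockdown-labelled libraries and 45.1, 45.4 and 43.5 CPM in the rescue libraries. The controls lay close together and above all 6 other libraries, and knockdown-labelled library 3 sat close to the rescue values. Against control, TGFB1 differed by -0.48 in the knockdown-labelled libraries (SE 0.133, adjusted p = 0.106, edgeR) and by -0.24 in the rescue libraries (SE 0.132, adjusted p = 0.584, edgeR), and neither passed. Knockdown-labelled library 3 decided the first call: without it the value was -0.64 with an adjusted p of 1.4e-04 by edgeR, in a fit where 32.9% of all tested genes passed, and with it alone -0.24. HNRNPUL1 on the opposite strand shares 6.64% of the exon length of TGFB1 and had 2136 to 4766 counts a library, with log2 fold changes of -0.25 and -0.16 against control that did not pass (adjusted p = 0.252 and 0.674, edgeR).

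**Figure D2:**
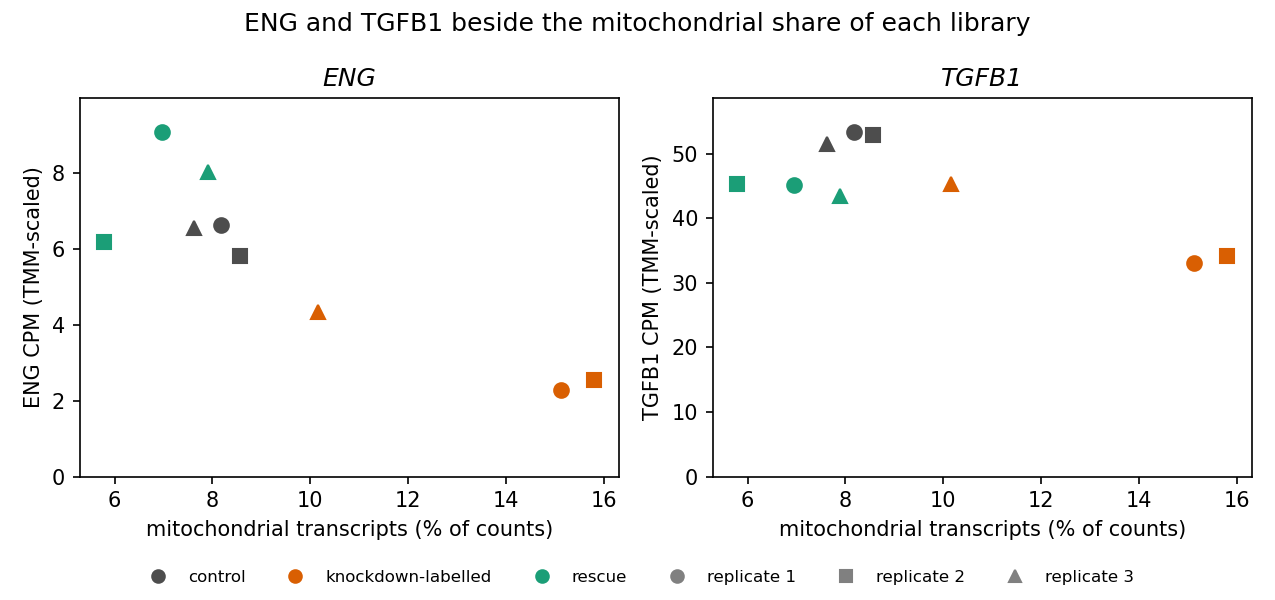
ENG (left) and TGFB1 (right) in TMM-scaled CPM (vertical axes, from 0) against the percentage of gene counts on mitochondrial transcripts (horizontal axes), 1 point per library, coloured by group. Knockdown-labelled libraries 1 and 2, at 15.1% and 15.8% mitochondrial counts, hold the 2 lowest values of both genes.

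The 3 receptor genes went different ways. TGFBR2, the type II receptor of TGF-beta, had the lowest level per kilobase of exon of the 3, with 2.21, 2.04 and 1.33 CPM in the controls, 2.68, 2.46 and 3.47 CPM in knockdown-labelled libraries and 6.97, 4.01 and 4.36 CPM in the rescue libraries. In TMM-scaled CPM no TGFBR2 value overlapped between any pair of groups, and the groups ranked control, knockdown-labelled, rescue. The separation of knockdown-labelled from control libraries rests on that scaling, and counts over library size alone overlapped there. The TMM factors were 0.794 and 0.801 in knockdown-labelled libraries 1 and 2 and 1.04 to 1.06 in the controls. The counts behind these values were small, 13 to 32 in the control and knockdown-labelled libraries and 44 to 106 in the rescue libraries. TGFBR2 in rescue against control had the largest log2 fold change of the 9 tested genes in any comparison, 1.47 (SE 0.346), and did not pass (adjusted p = 0.142, edgeR). Without knockdown-labelled library 3, which belongs to neither of these groups, it passed at an adjusted p of 0.0126 by edgeR with a value of 1.47, in a fit where 7.38% of all tested genes passed, and the range over all alternatives was 1.17 to 1.61. The knockdown-labelled difference from control was 0.63 (SE 0.360, adjusted p = 0.370, edgeR), and rescue differed from knockdown-labelled by 0.84.

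TGFBR1, the type I receptor of TGF-beta, did not separate the groups. Its levels were 22.3, 25.2 and 27.2 CPM in the controls, 27.4, 20.5 and 30.6 CPM in knockdown-labelled libraries and 24.1, 26.0 and 22.3 CPM in the rescue libraries. The 95% intervals of its log2 fold change against control ran from -0.30 to 0.43 for knockdown-labelled and from -0.41 to 0.32 for rescue. BMPR2, the type II receptor of BMP ligands, read 17.9, 17.3 and 18.9 CPM in the controls, 18.5, 21.9 and 31.8 CPM in knockdown-labelled libraries and 23.9, 28.1 and 21.0 CPM in the rescue libraries. All rescue values of BMPR2 lay above the controls, and the knockdown-labelled values spread across both. BMPR2 differed from control by 0.42 in the knockdown-labelled libraries (adjusted p = 0.285, edgeR) and by 0.43 in the rescue libraries (adjusted p = 0.479, edgeR), and neither passed. Knockdown-labelled library 3 held the highest BMPR2 level. Without it the first value was 0.17, and with it alone in its group 0.79.

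SMAD3, the transducer of the TGF-beta branch, was at 11.6, 15.1 and 11.7 CPM in the controls, 9.80, 8.36 and 8.35 CPM in knockdown-labelled libraries and 8.41, 11.9 and 13.6 CPM in the rescue libraries. The knockdown-labelled values lay under all controls but overlapped rescue library 1. The log2 fold change from control was -0.54 for knockdown-labelled (SE 0.219, adjusted p = 0.219, edgeR) and -0.18 for rescue (95% interval -0.65 to 0.29). SMAD7, an inhibitory SMAD that is itself a target of the pathway, spread more within the knockdown-labelled group than the group means differed, with 3.14, 3.05 and 2.15 CPM in the controls, 1.88, 1.32 and 4.56 CPM in knockdown-labelled libraries and 2.63, 4.71 and 3.27 CPM in the rescue libraries. Knockdown-labelled library 3 was over all controls for SMAD7 and libraries 1 and 2 were under them, so the value against control, -0.11, became -0.82 without library 3 and 0.69 with library 3 alone. An antisense gene that shares 2.00% of the exon length of SMAD3 had 0 to 1 counts a library.

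The ID genes encode inhibitors of basic helix-loop-helix transcription factors. ID2 was at 13.5, 17.7 and 24.5 CPM in the controls, 34.0, 36.6 and 28.4 CPM in knockdown-labelled libraries and 21.0, 38.6 and 24.8 CPM in the rescue libraries. The knockdown-labelled values of ID2 were above all controls, and the rescue values overlapped both groups. ID2 differed from control by 0.83 in the knockdown-labelled libraries (SE 0.259, adjusted p = 0.135, edgeR) and by 0.59 in the rescue libraries (adjusted p = 0.447, edgeR), and neither passed. Without knockdown-labelled library 3 the first value was 0.92 and passed at an adjusted p of 0.00414 by edgeR. In that fit 32.9% of all tested genes passed. Its antisense neighbour ID2-AS1 shares 1.72% of the exon length of ID2 and had 0 to 11 counts a library.

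ID1 and ID3 were at the edge of detection. ID1 had 7, 3 and 3 counts in the controls, 9, 13 and 3 with the knockdown label and 17, 7 and 16 in rescue, and it did not pass the filter on low counts. ID3 had 6, 12 and 13 counts in the controls, 0, 4 and 9 with the knockdown label and 14, 7 and 8 in rescue. The 0 in knockdown-labelled library 1 allows up to 0.403 CPM (3 counts, counting error only), library 2 lay under the controls and library 3 within their range. The ID3 difference of -1.23 between knockdown-labelled and control libraries had a 95% interval of -2.86 to 0.40 and did not pass (adjusted p = 0.398, edgeR). Without knockdown-labelled library 3 it was -2.34 and passed at an adjusted p of 0.0444 by edgeR, in a fit where 32.9% of all tested genes passed.

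**Figure D3:**
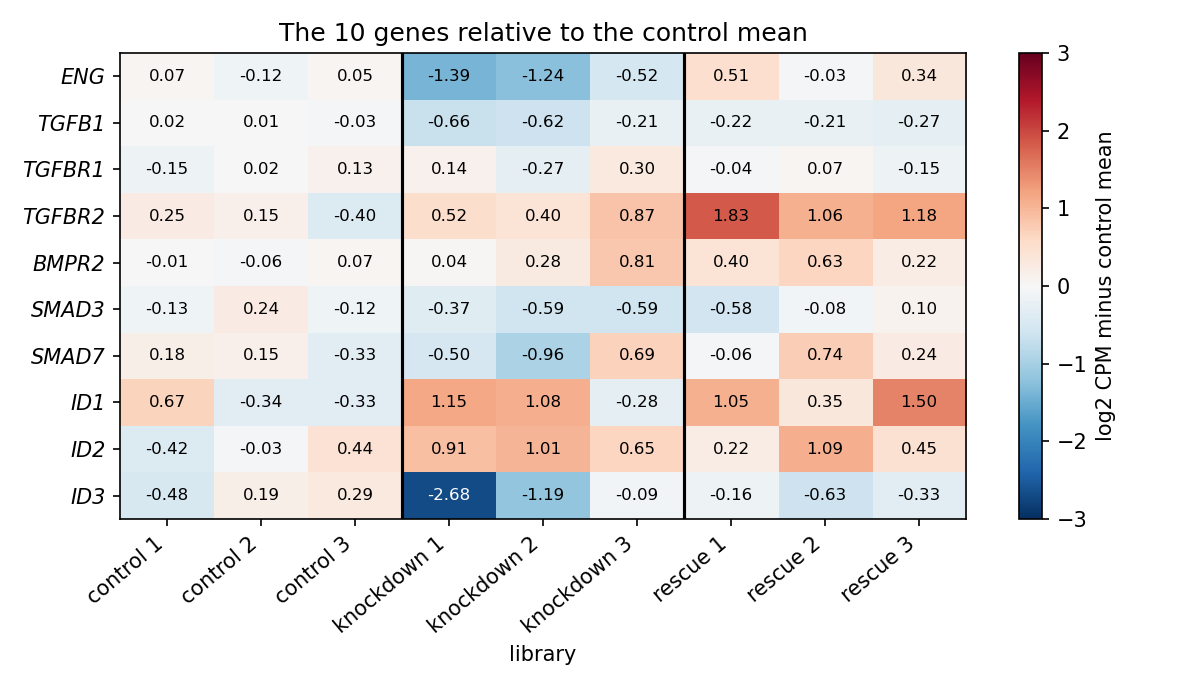
Log2 CPM of the 10 genes in each library (columns) minus the mean log2 CPM of the 3 controls (prior count 2); red is higher and blue is lower than the control mean. ENG reads -1.39, -1.24 and -0.52 in the knockdown-labelled libraries, and TGFBR2 reads 1.83, 1.06 and 1.18 in the rescue libraries.

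Leaving ENG aside, 0 of the 8 other tested genes passed in knockdown-labelled against control, where 0.00595% of all 16796 tested genes passed (1 gene). At an unadjusted p under 0.05 there were 3 of 8, beside 19.1% of all tested genes, and DESeq2 called 1 (TGFB1), beside 6.01%. With ENG included as a description, 2 of 9 were higher (TGFBR2, ID2) and 3 lower (ENG, TGFB1, SMAD3) without overlap of the groups, against a background of 21.2% of all tested genes with no overlap. The median log2 fold change of the 9, ENG included, was -0.11, beside 0.02 over all tested genes, and nothing is read from it. Without knockdown-labelled library 3, 3 of the 9 genes other than ENG that were then tested passed (TGFB1, ID2, ID3), a share near the 32.9% of all tested genes that passed in that fit.

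In rescue against control 0 of the 8 genes other than ENG passed, with a background of 0.149% (25 genes). At an unadjusted p under 0.05 there were 2, beside 10.5% of all tested genes, and DESeq2 called 1 (TGFBR2), beside 1.94%. The groups did not overlap for TGFBR2 and BMPR2, which were higher, and TGFB1, which was lower, where 26.4% of all tested genes did not overlap. The median of the 9, ENG included, was 0.30, beside -0.01 over all tested genes. It is the value of ENG itself, so nothing is read from it. The comparison shares its libraries with both others. Without knockdown-labelled library 3 the count was 1 of 9 (TGFBR2), beside 7.38% of all tested genes.

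In rescue against knockdown-labelled, ENG stood under the threshold because it was chosen for that, so the count of 1 of 9 is no test. Over all tested genes 9.83% (1651 genes) passed, and 28.6% did not overlap, as ENG and TGFBR2 did not. Nothing is read from these shares. The median log2 fold change of the 9, ENG included, was 0.35, beside -0.00 over all tested genes, and nothing is read from it either.

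**Figure D4:**
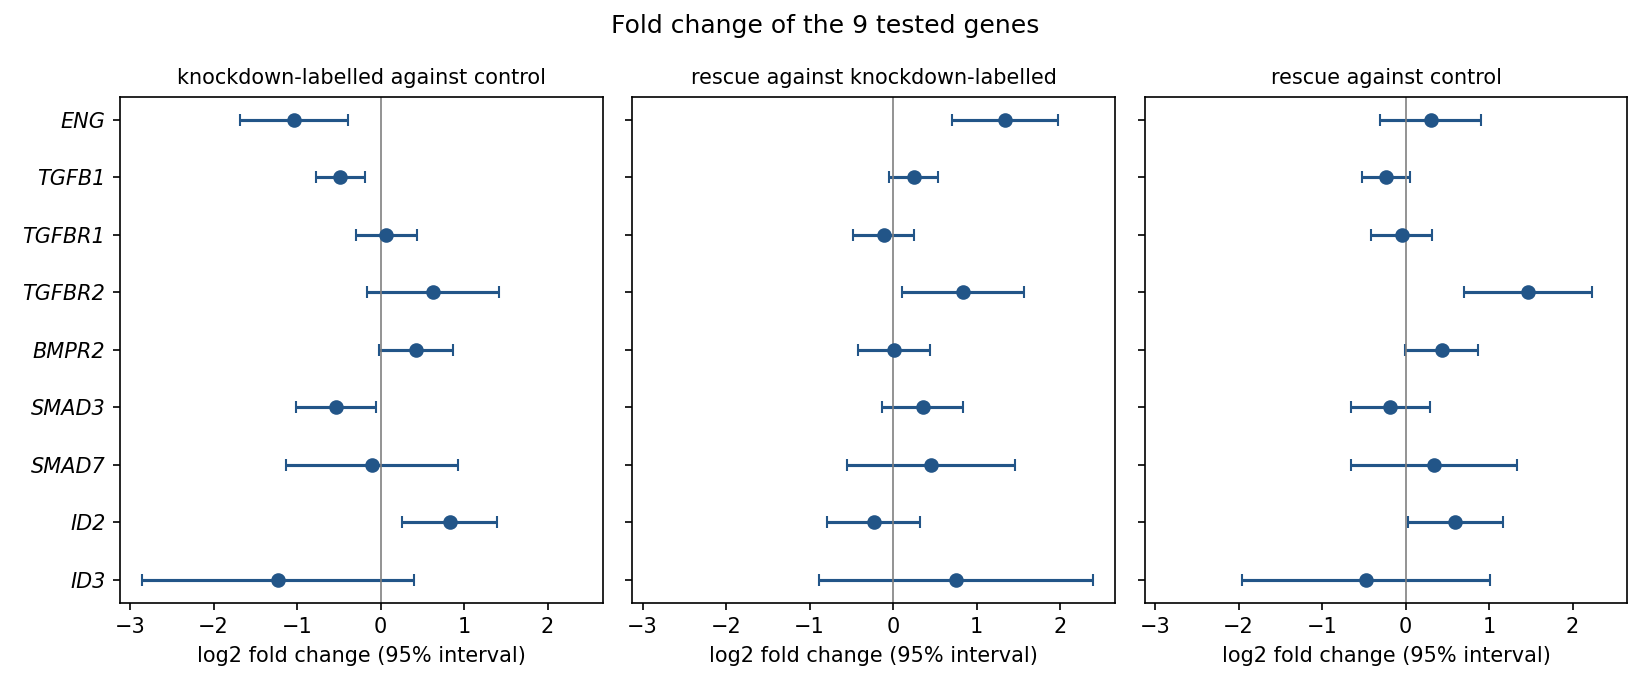
Log2 fold changes (horizontal axes) of the 9 tested genes in the 3 comparisons, with 95% intervals from edgeR. The comparisons share libraries and the middle panel is the contrast that chose ENG. The intervals of that panel, and those of ENG in every panel, are no test. ENG reads -1.04, 1.34 and 0.30 from left to right, and TGFBR2 reads 0.63, 0.84 and 1.47.

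Per kilobase of exon, the control libraries ranked TGFB1 first (16.2 CPM per kb), then ID2 (8.42) and TGFBR1 (3.64), each without overlap with the next. ENG (1.61 ± 0.115 CPM per kb, SD, n = 3), BMPR2 (1.52) and SMAD3 (1.40) followed and overlapped their neighbours. ID3, SMAD7, TGFBR2 and ID1 were lowest, at 0.602 to 0.385 CPM per kb, and overlapped in turn. In the knockdown-labelled libraries ID2 (15.0 CPM per kb) stood above TGFB1 (11.6) with overlapping ranges, and ENG was the 6th (0.777 ± 0.284 CPM per kb). In the rescue libraries ENG was the 5th (1.97 ± 0.370 CPM per kb), overlapping BMPR2 above it but not SMAD3 below it. TGFBR2 was the 9th in the controls and the 7th in the rescue libraries (1.09 CPM per kb).

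The surrounding pathway was read from 72 further genes in 5 role lists, of which 59 passed the filter on low counts. In knockdown-labelled against control 0 of 59 passed, 10 were under an unadjusted p of 0.05 (19.1% of all tested genes were), and DESeq2 called 3 (6.01% of all). In rescue against knockdown-labelled 2 of 59 rose and 1 fell, where 9.83% of all tested genes passed, and in rescue against control 1 rose, where 0.149% passed. The median log2 fold changes were 0.07, 0.20 and 0.24 in that order, beside 0.02, -0.00 and -0.01 over all tested genes. Without knockdown-labelled library 3 the counts were 15, 14 and 10 of 60, where 32.9%, 39% and 7.38% of all tested genes passed, so calls grew with that library's removal across all genes.

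Among ligands and latency genes, 0 of 15 tested passed in any comparison. TGFB2, another TGF-beta ligand, was at 2.55, 2.04 and 2.86 CPM in the controls, 2.55, 3.79 and 2.28 CPM in knockdown-labelled libraries and 5.65, 4.27 and 6.24 CPM in the rescue libraries, all rescue values above the rest. Its log2 fold change was 0.89 for rescue against knockdown-labelled (adjusted p = 0.0887, edgeR) and 1.11 for rescue against control (adjusted p = 0.209, edgeR). INHBA and INHBB encode activin subunits. INHBB was at 1.02 to 1.73 CPM in the controls, 1.74 to 4.83 CPM in knockdown-labelled libraries and 2.69 to 4.01 CPM in the rescue libraries, with log2 fold changes from control of 1.32 and 1.35 (adjusted p = 0.149 and 0.280, edgeR). INHBA stayed at or under 2.58 CPM and had just 3, 3 and 6 counts in the controls. Its log2 fold changes from control, 1.72 and 2.02 (adjusted p = 0.212 and 0.306, edgeR), rest on those small counts.

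Among the other receptors and co-receptors, 0 of 9 tested passed in any comparison. ACVR2B, an activin type II receptor, was at 22.3, 19.7 and 18.0 CPM in the controls, 8.72, 8.80 and 16.6 CPM in knockdown-labelled libraries and 17.5, 17.1 and 16.7 CPM in the rescue libraries. Its 2 low values were again in knockdown-labelled libraries 1 and 2, and the log2 fold change from control was -0.81 (adjusted p = 0.117, edgeR). BMPR1B, a type I BMP receptor, differed by 0.49 between rescue and knockdown-labelled libraries (adjusted p = 0.176, edgeR). NEO1, neogenin, a receptor that also binds repulsive guidance molecules, differed from control by 1.06 in knockdown-labelled libraries and 1.32 in the rescue libraries (adjusted p = 0.227 and 0.299, edgeR). ACVRL1, which encodes ALK1, the type I partner of endoglin in endothelial cells, had 1 count in control library 1 and 0 in the other 8 libraries; it is named after its values were seen.

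Among SMADs and their nuclear partners, 1 of 9 tested passed, in rescue against knockdown-labelled, where 9.83% of all tested genes passed. SMAD1, a transducer of the BMP branch, fell in rescue against knockdown-labelled by 0.63 on the log2 scale (SE 0.165, adjusted p = 0.0384, edgeR). The call of SMAD1 was kept without control library 3 or without knockdown-labelled library 3 and was lost with any other 1 library left out. It was also lost in a fit of the 2 compared groups alone, where only 7 of all 16418 tested genes passed. SMAD1 was at 21.1, 23.1 and 28.2 CPM in the controls, 23.8, 26.1 and 33.1 CPM in knockdown-labelled libraries and 17.7, 18.6 and 17.1 CPM in the rescue libraries. The rescue values lay under all others, and the difference of rescue from control, -0.44, did not pass (adjusted p = 0.373, edgeR). SMAD9, of the same branch, was at 2.86 to 4.53 CPM in the controls, 4.14 to 4.23 CPM in knockdown-labelled libraries and 3.67 to 6.89 CPM in the rescue libraries, with a log2 fold change of 0.65 between rescue and control (adjusted p = 0.483, edgeR). The co-activator gene CREBBP had a log2 fold change of 0.35 between rescue and knockdown-labelled libraries (adjusted p = 0.191, edgeR).

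Among inhibitors, 0 of 14 tested passed in any comparison. PMEPA1, which encodes a membrane protein that sequesters receptor SMADs, was at 191, 198 and 258 CPM in the controls, 360, 354 and 160 CPM in knockdown-labelled libraries and 357, 432 and 472 CPM in the rescue libraries. All rescue values of PMEPA1 lay above the controls, with a log2 fold change of 0.96 (adjusted p = 0.214, edgeR), and knockdown-labelled library 3 was the lowest of all 9. SMURF1, a ubiquitin ligase for SMADs and receptors, differed by 0.50 between rescue and knockdown-labelled libraries (adjusted p = 0.0796, edgeR). FKBP1A, whose product binds and restrains type I receptors, differed by 0.43 between knockdown-labelled and control libraries and by -0.40 between rescue and knockdown-labelled libraries (adjusted p = 0.114 and 0.0661, edgeR).

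Among target genes, 2 of 12 tested rose in rescue against knockdown-labelled and 1 of 12 in rescue against control. Of all 16796 tested genes, 745 rose in the former and 24 in the latter. FN1, the gene of the matrix protein fibronectin, rose by 0.92 on the log2 scale in rescue against control (SE 0.148, adjusted p = 0.0449, edgeR). FN1 was at 50.4, 52.5 and 63.8 CPM in the controls, 70.7, 81.2 and 97.9 CPM in knockdown-labelled libraries and 108, 113 and 95.6 CPM in the rescue libraries. Its knockdown-labelled values already lay above the controls, with a log2 fold change of 0.58 that did not pass (adjusted p = 0.0967, edgeR). The call of FN1 was lost with any 1 library left out other than knockdown-labelled library 3, and with limma-voom. Over all tested genes, 1 to 12 passed in those leave-out fits and 13 with limma-voom, against 25 in the main fit. TAGLN, the gene of the actin-binding protein transgelin, was at 25.5 to 29.4 CPM in the controls, 20.5 to 24.6 CPM in knockdown-labelled libraries and 37.4 to 44.5 CPM in the rescue libraries, and its 3 groups did not overlap. JUNB, an AP-1 transcription factor gene, was at 27.0 to 30.0 CPM, 28.1 to 33.6 CPM and 38.9 to 66.3 CPM in the same order. TAGLN rose by 0.83 (adjusted p = 0.00909) and JUNB by 0.78 (adjusted p = 0.0255) on the log2 scale in rescue against knockdown-labelled, by edgeR. TAGLN passed with each of the 9 libraries left out in turn, and JUNB did not pass without control library 2, knockdown-labelled library 1 or 2, or rescue library 2 or 3. With only the 2 groups compared in the fit, neither passed, but only 7 of all 16418 tested genes did.

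ID4, the remaining ID gene, is named after its values were seen because it had the highest level per kilobase of exon of the 4 (95.9 CPM per kb in the controls). It was at 234, 247 and 193 CPM in the controls, 152, 160 and 202 CPM in knockdown-labelled libraries and 152, 162 and 160 CPM in the rescue libraries. The rescue values lay under all controls, and knockdown-labelled library 3 was among the controls. The log2 fold changes from control were -0.39 and -0.51 and did not pass (adjusted p = 0.180 and 0.209, edgeR), with the opposite sign to those of ID2.

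The cells were checked against markers of cell types that carry endoglin or TGF-beta receptors. All 9 prostate luminal markers were above 3 counts in all 9 libraries and summed to 3406 to 6175 CPM. The 4 basal markers summed to 48.9 to 137.8 CPM, nearly all of it from KRT15 (47.9 to 136.9 CPM). KRT5, KRT14 and TP63 stayed at or under 1.32, 2.20 and 0.198 CPM. The 10 endothelial markers summed to 3.77 to 8.39 CPM in the controls, 5.10 to 6.69 CPM in knockdown-labelled libraries and 5.32 to 8.72 CPM in the rescue libraries, so their ranges overlapped, and ROBO4 was at 0 in all libraries. The 5 macrophage markers summed to 3.69 to 11.4 CPM, and CD163 and PTPRC were at 0 in all libraries. The 8 fibroblast markers summed to 20.5 to 69.7 CPM in the controls, 42.4 to 49.0 CPM in knockdown-labelled libraries and 49.2 to 127.9 CPM in the rescue libraries. The fibroblast sum was highest in rescue library 3, where COL1A1 alone was at 76.5 CPM, in the group with the highest mean FN1 and TAGLN. Of the rescue libraries, that one had the lowest FN1 (95.6 CPM) and the highest TAGLN (44.5 CPM). The part of the fibroblast sum in those results was not tested.

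Over the 9 libraries, the protein-coding genes whose log2 CPM followed ENG most closely were PLXNB2 (Pearson r = 0.99), UBE2Z (0.98), SLC7A1 (0.98), LTB4R (0.98) and EZH1 (0.97), ranked among 11307 genes with a mean of at least 2 CPM. These values share library, depth and scaling with ENG and are descriptions. PLXNB2, a plexin receptor gene, averaged 299 CPM in the controls, 259 CPM in the knockdown-labelled and 318 CPM in the rescue libraries, a narrower span than that of ENG. Among the other 9 genes of the pathway, r with ENG was highest for TGFB1 (0.78) and ID3 (0.77) and lowest for ID2 (-0.56).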

How the data were processed

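RNA sequencing of 9 LAPC4 libraries, 3 per group, was analysed from the whole-number read counts per gene that the authors deposited, without normalization. Per the submitters' processing notes, the tools were FastQC, cutadapt, STAR and HTSeq on hg38; the sources used here do not give versions, annotation or strand setting. Of all counts, 43.7% to 48.7% lay on no feature, and the 5 summary rows were left out of depth and tests.

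The edgeR quasi-likelihood F test (version 4.0.16, R 4.3.3) was run on all 9 libraries together, after TMM scaling and the filterByExpr filter at a minimum count of 10, with 6 residual degrees of freedom. Genes were said to pass where the Benjamini-Hochberg adjusted p over all 16796 tested genes was under 0.05. Standard errors equal the absolute log2 fold change over the root of F. Intervals are at 95% confidence. Log2 CPM used a prior count of 2. Loci and exon lengths come from GENCODE 29. Groups were taken as not overlapping where all 3 CPM values of one lay above all 3 of the other. Mitochondrial shares and intervals rest on 8132206 to 14185252 counts a library.

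The 10 genes and all lists were chosen with earlier results of these data known. Named were the 10 genes, UGT2B28, up to 3 genes per role list with the smallest p, any listed gene that passed, and the 5 genes most like ENG by Pearson r. Alternatives were DESeq2 1.42.0 size factors and Wald test, library size alone, 2 other filters, limma-voom (limma 3.58.1), a fit of just the compared groups, the replicate number as a block, each library left out, and knockdown-labelled libraries 1 and 2 left out together.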

Additional observations from a re-analysis of the deposited data

How the results depend on the processing

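Main counts that passed, for the 10 genes and for the 72 pathway genes, were 0 and 0 in knockdown-labelled against control, 1 and 3 in rescue against knockdown-labelled, and 0 and 1 in rescue against control. Without a filter on low counts they were 2 and 4, 1 and 9, and 1 and 6, where 1045, 2636 and 401 of all 35046 tested genes passed. With the DESeq2 Wald test they were 2 and 3, 1 and 5, and 1 and 5, where 1009, 2702 and 326 of all 16796 tested genes passed. With library size alone, which moved the median of all genes by -0.22 in the first comparison and 0.24 in the second, the pathway counts were 6 in rescue against knockdown-labelled and 0 in rescue against control. Over all 16796 tested genes, 1552 and 21 passed in the same order. With limma-voom the pathway count of rescue against control was 0, where 13 of all 16796 tested genes passed. With only the groups compared, rescue against knockdown-labelled gave 0 and 0 and rescue against control 1 and 10. Over all tested genes, 7 of 16418 and 962 of 16393 passed in those fits. With knockdown-labelled library 3 alone in its group, assumed to vary like the other groups, the counts were 1 and 5, 0 and 12, and 1 and 11. Leaving out each library in turn gave 0 to 4 and 0 to 15, 0 to 4 and 1 to 14, and 0 to 1 and 0 to 10, the highest each time without knockdown-labelled library 3, where calls over all genes rose too; the cause was not tested. The counts include ENG, whose calls are no test. In rescue against knockdown-labelled the count was 0 without knockdown-labelled library 1 or 2 or rescue library 1 or 3. In those fits 134 to 526 of all tested genes passed, against 1651 in the main fit.

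With the replicate number as a block, the counts were 0 and 0, 0 and 1, and 0 and 0. Over all 16796 tested genes, 0, 442 and 4 passed. Same-numbered libraries did not deviate together (r of -0.35 to 0.08 over 9 pairs, 0 of them over 0.1), so the numbers are not taken to pair the samples.

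Of 484 values under alternatives, 18 changed sign, all of them values not called. With library size alone TGFBR1 was -0.13 in knockdown-labelled against control and 0.11 in rescue against knockdown-labelled, and ID2 was 0.039 in the latter. With knockdown-labelled library 3 alone, SMAD7 was 0.69 against control, and in rescue against knockdown-labelled SMAD7 was -0.35, BMPR2 -0.36, ID3 -0.30 and ID2 0.0041. With 1 library left out, knockdown-labelled against control ranged from -0.071 to 0.22 for TGFBR1 and -0.82 to 0.23 for SMAD7. Rescue against knockdown-labelled then ranged from -0.14 to 0.26 for BMPR2 and -0.27 to 0.021 for TGFBR1, and rescue against control from -0.12 to 0.019 for TGFBR1. ENG kept its sign in all alternatives, at -1.37 to -0.57 and 0.87 to 1.67 in the first 2 comparisons. ENG was chosen on these same libraries, so its kept sign is a description and no support. Depth limits ID1, ID3 and TGFBR2, with 3 to 17, 0 to 14 and 13 to 106 counts a library.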
